A study of Mus musculus with 15 samples.

Results

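The genes described here encode the protein subunits of the ribosome of the cytosol and of the ribosome inside mitochondria, measured in mouse interscapular brown adipose tissue, the fat depot between the shoulder blades that burns fuel to make heat. They were chosen by symbol alone: Mrpl or Mrps plus a digit for mitochondrial subunits, and Rpl, Rps or Rplp plus a digit for cytosolic ones, on array probe sets annotated with a single gene. Of 18194 genes with such a probe set, 125 met the rule, 76 mitochondrial (47 large subunit and 29 small subunit by symbol) and 49 cytosolic (26 large and 23 small). Another 31 cytosolic symbols occurred only on probe sets that carry several symbols, and 2 mitochondrial symbols did, so the cytosolic class in particular is incomplete here. One symbol, Rps19bp1, names a protein that binds a ribosomal protein and entered through the wording of the rule.

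The study hybridised 15 Affymetrix expression arrays of total RNA, 5 per group, from adult wild-type males of the strain C57BL/6N that were fed a high-fat diet. Mice of the aFGFR1/KLB group (replicates 41 to 45) had received a single intraperitoneal injection of bFKB1, an agonistic antibody against the FGFR1/KLB receptor complex, at 10 mg/kg. Mice of the FGF21 group (36 to 40) had received human FGF21, the hormone that acts through this complex, at 1 mg/kg given b.i.d., or 2 mg/kg/day. For the control mice (31 to 35) the labels name no injected substance. Tissue was taken at day 5 in a study of genes regulated through this receptor, and the 5 arrays of a group are described as biological replicates. The FGF21 was human and given repeatedly while the antibody was given as a single dose, so the 2 treatments differ in schedule as well as in molecule.

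A ribosome is built from ribosomal RNA and a fixed set of proteins, one or a few copies of each, split between a small subunit that reads the messenger and a large subunit that joins amino acids. Cytosolic ribosomes translate nearly all cellular messengers, and many messengers for their own proteins begin with a pyrimidine tract through which growth signals control their translation. Mitochondrial ribosomes translate only the few messengers of the mitochondrial genome, which encode core subunits of the respiratory chain, and all of their proteins are imported from the cytosol. Brown adipocytes are packed with mitochondria and depend on that chain for heat production.

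All values below are log2 array intensities, differences are on the log2 scale with their standard error, and a gene passed the test when limma's moderated test, adjusted by the Benjamini-Hochberg method over the 13174 genes tested, gave an adjusted p under 0.05. Array medians on the linear scale lay between 50.6 and 52.1, and the precision rests on 5 arrays per group. Of the members, 124 were bright enough to be tested, all 76 mitochondrial and 48 cytosolic. The exception was Rps16, a small subunit protein whose single-symbol probe set averaged 3.42, below the limit of 5.06. Intensities of different probe sets were not set against each other, since probes differ in how strongly they bind. The probe sets used for 33 cytosolic and 30 mitochondrial genes carry a suffix (a, s or x, pooled here) that marks probes shared between transcripts. These can be transcripts of the same gene, as for the suffix a, or of other genes. Where they are of other genes, a paralog or a processed pseudogene may contribute to the value.

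Markers of brown adipocytes were present in every sample: the summed intensity of 14 of 14 markers on the array lay between 165597 and 175129 in the aFGFR1/KLB group, between 149118 and 170528 in the FGF21 group and between 149671 and 163885 in controls. Markers of other cell types varied widely within groups. Of 20 macrophage markers, 19 passed the intensity limit, all but Itgam, and their summed intensity ran from 13545 to 24653 in the aFGFR1/KLB group, from 10083 to 72260 in the FGF21 group and from 8836 to 60995 in controls. The summed intensity of 11 of 11 fibroblast and matrix markers ran from 19192 to 29674 in the aFGFR1/KLB group, from 23689 to 73881 in the FGF21 group and from 22318 to 83822 in controls. The highest macrophage values belonged to FGF21 36 and control 34, as did the highest fibroblast values. In whole tissue, fewer cells of a type and less RNA per cell cannot be told apart.

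The ribosomal protein genes changed little with either treatment. In the aFGFR1/KLB group 0 of 76 mitochondrial and 0 of 48 cytosolic members passed the test against control by limma, where 5.18% of all tested genes did. In the FGF21 group 2 mitochondrial members, Mrpl57 and Mrpl41, and 1 cytosolic member, Rps27l, were lower than in controls and none was higher, against 6.32% of all tested genes called in either direction and 3.68% called lower. Between the antibody and FGF21, 0 of 76 and 0 of 48 passed, with 0.372% of all tested genes called. The shares of members called were at or below those of all genes in the comparisons with control.

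The 3 members that passed were each lower with FGF21 by between 0.22 and 0.27 on the log2 scale, and their promoters are shown because they carry the only calls. They are followed by 2 cytosolic members often used as reference genes in PCR assays, Rpl13a and Rplp0. Promoters with and without a match to the tract search described below can thus be seen side by side. Each run covers 100 bases before to 20 bases after the annotated start, from RefSeq on build GRCm38.p6, with any searched motif in capitals.
Mrpl57, chr14:57826139-57826258, plus strand: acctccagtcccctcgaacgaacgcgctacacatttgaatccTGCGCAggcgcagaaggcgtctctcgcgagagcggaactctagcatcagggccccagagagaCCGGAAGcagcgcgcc
Mrpl41, chr2:24975079-24975198, minus strand: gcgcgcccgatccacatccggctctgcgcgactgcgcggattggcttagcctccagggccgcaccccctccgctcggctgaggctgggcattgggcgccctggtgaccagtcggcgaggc
Rps27l, chr9:66945986-66946105, plus strand: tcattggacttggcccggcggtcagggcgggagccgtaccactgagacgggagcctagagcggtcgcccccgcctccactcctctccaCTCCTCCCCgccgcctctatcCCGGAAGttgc
Rpl13a, chr7:45128726-45128845, minus strand: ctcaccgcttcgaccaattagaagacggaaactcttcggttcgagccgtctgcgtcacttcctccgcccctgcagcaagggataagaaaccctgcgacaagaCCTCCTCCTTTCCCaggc
Rplp0, chr5:115559367-115559486, plus strand: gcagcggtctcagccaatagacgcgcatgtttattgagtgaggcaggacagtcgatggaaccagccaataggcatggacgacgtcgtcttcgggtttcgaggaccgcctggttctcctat

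The motifs searched were CCGGAAG, the core bound by ETS-family factors such as GABP, TGCGCA, the core of sites bound by NRF1, and AAGATGG, the core of YY1 sites, each on both strands in windows from 250 bases before to 50 bases after the start, together with a pyrimidine tract, a run of at least 8 C or T letters that begins with C, on the gene's strand between 15 bases before and 20 bases after the start. CCGGAAG occurred in 34.2% of 73 windows of 67 mitochondrial members and 39.2% of 51 windows of 43 cytosolic members, against 11.6% of the 21263 windows of protein-coding genes. TGCGCA was found in 30.1% of mitochondrial and 17.6% of cytosolic windows, against 9.74% of protein-coding windows. AAGATGG was found in 17.8% of mitochondrial and 15.7% of cytosolic windows, against 6.24%. The pyrimidine tract, which can share letters with the reverse complement of CCGGAAG, was present in 37.3% of cytosolic windows and in 11.0% of mitochondrial windows, and protein-coding windows at large also held it in 11.0%. Among the promoters printed, Mrpl57 held CCGGAAG and TGCGCA, Rps27l held CCGGAAG and a tract, Rpl13a held a tract, and the windows shown for Mrpl41 and Rplp0 held none of these letters. A match describes the sequence and says nothing about binding in this tissue. The tract search depends on the annotated start and on the run length set. A missing match, as for Rplp0, does not show that a messenger lacks a tract, and the shares with a match are not shares of such messengers.

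Mrpl57 encodes a protein of the large mitochondrial subunit. Its intensity was 10.45, 10.61, 10.65, 10.74 and 10.68 in FGF21 samples 36 to 40, against 10.89, 10.94, 10.91, 10.78 and 10.88 in control samples 31 to 35. Every FGF21 sample lay below every control, with FGF21 36 lowest. The difference was -0.25 ± 0.07 (0.840-fold, limma adjusted p = 0.0442). In the aFGFR1/KLB group the values were 10.57, 10.81, 10.85, 10.85 and 10.67, which overlapped both other groups (-0.13 ± 0.07 against control, limma adjusted p = 0.344). A dimmer probe set of the same gene differed by -0.08 between FGF21 and control (limma adjusted p over all probe sets = 0.755).

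Mrpl41, also of the large mitochondrial subunit, was 10.94, 11.27, 11.16, 11.25 and 11.14 in the FGF21 group, against 11.41, 11.47, 11.61, 11.26 and 11.36 in controls. The ranges overlapped, since FGF21 37 lay just above control 34. Its difference was -0.27 ± 0.07 (0.830-fold, limma adjusted p = 0.0460). In aFGFR1/KLB samples it was 11.30, 11.32, 11.27, 11.18 and 11.18, a difference of -0.17 ± 0.07 from control (limma adjusted p = 0.224). A second Mrpl41 probe set differed by -0.25 between FGF21 and control (limma adjusted p over all probe sets = 0.104).

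Rps27l, a paralog of the small subunit protein Rps27 and a known transcriptional target of p53, was 12.25, 12.32, 12.34, 12.43 and 12.41 in FGF21 samples, against 12.50, 12.56, 12.54, 12.72 and 12.54 in controls. All FGF21 samples were below all controls, by -0.22 ± 0.06 on average (0.857-fold, limma adjusted p = 0.0451). The aFGFR1/KLB samples, at 12.29, 12.45, 12.46, 12.46 and 12.29, were also all below the controls, and this difference of -0.18 ± 0.06 did not pass (limma adjusted p = 0.110). The other probe sets of Rps27l differed by -0.21 and -0.18 between FGF21 and control. All 3 probe sets of this gene carry the suffix for shared probes.

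None of the 3 calls was firm. Among 15 fits that each left out a single array, Mrpl41 missed the threshold in 13, Mrpl57 in 12 and Rps27l in 12, with adjusted p reaching 0.112 for each mitochondrial gene and 0.0919 for Rps27l. Without control 34 the FGF21 comparison called 10 mitochondrial members, all lower, and 3 cytosolic members. In that fit 15.9% of all genes were called, 1280 lower and 817 higher of 13174. Without FGF21 36 it called 1 mitochondrial member, Mrpl46, higher by 0.31 (limma adjusted p = 0.0263), and no cytosolic member, with 7.42% of all genes called.

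**Figure D1:**
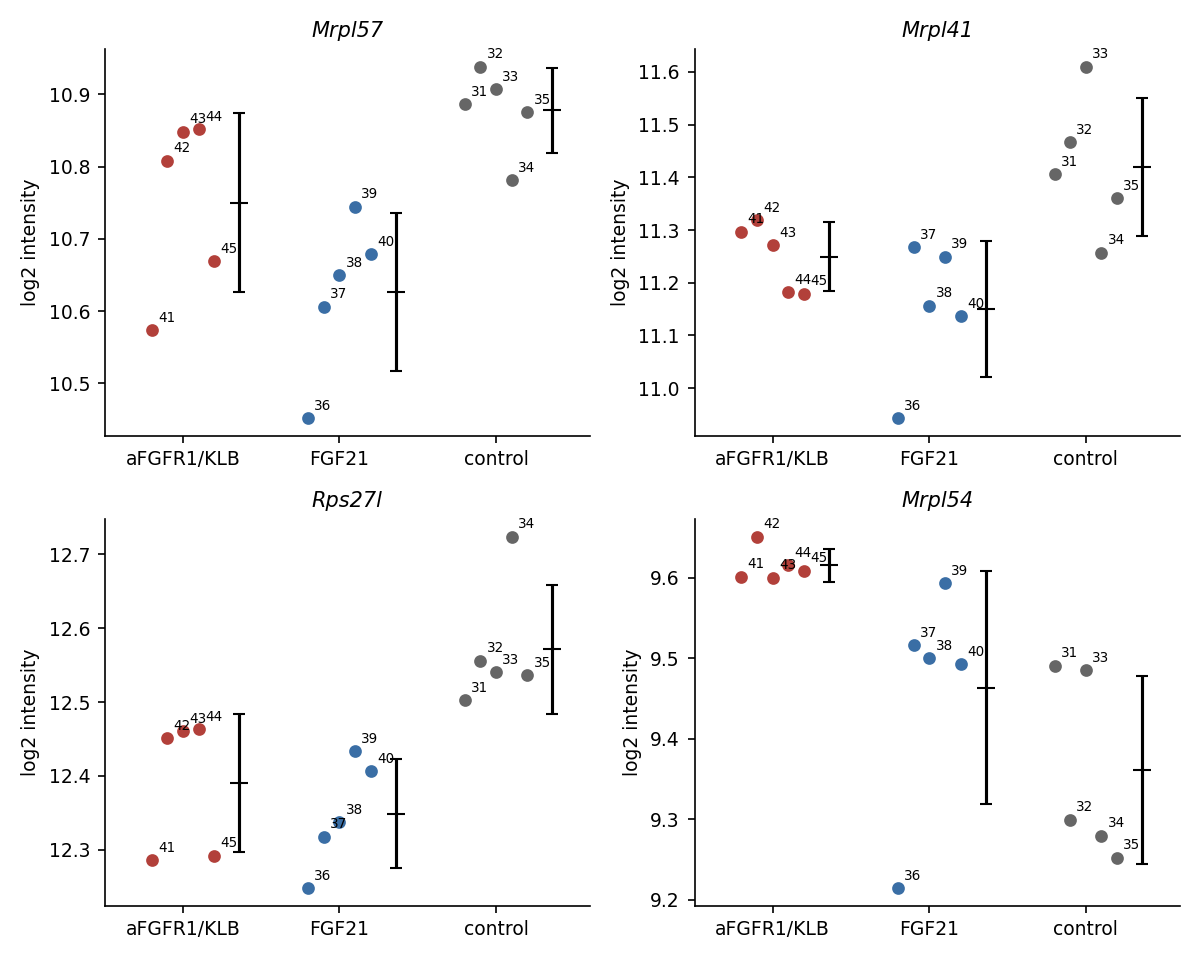
Log2 intensity (vertical axis, cropped to each gene's range) of Mrpl57, Mrpl41, Rps27l and Mrpl54 in each sample, by group, with the replicate number beside each point and the group mean ± SD in black (n = 5). FGF21 points lie below all control points for Mrpl57 and Rps27l, and aFGFR1/KLB points lie above all others for Mrpl54.

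Beyond the calls, few members had groups that did not overlap. For the aFGFR1/KLB group against control, 8.61% of all tested genes had no overlap. Among members, Mrpl43, Mrpl46 and Mrpl54, all of the large mitochondrial subunit, lay wholly above control, and Mrps18c, Rpl37a, Rpl41, Rps19 and Rps27l lay wholly below. For FGF21 against control the background was 5.25%, with 380 genes wholly below and 312 wholly above. Here Mrpl18, Mrpl22, Mrpl57, Mrps14, Mrps18c and Rps27l lay wholly below and no member lay wholly above. At an unadjusted p under 0.05, limma gave 5 mitochondrial members higher and 4 lower and 2 cytosolic members higher and 7 lower for the antibody against control, where 19.4% of all genes passed. For FGF21 against control it gave 13 mitochondrial members and 1 cytosolic member, all lower, where 20.4% of all genes passed (1616 lower and 1070 higher of 13174). Between the antibody and FGF21 groups only Mrpl54 was separated, against 4.69% of all genes.

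Mrpl54 was the member nearest to the threshold with the antibody. It read 9.60, 9.65, 9.60, 9.62 and 9.61 in aFGFR1/KLB samples 41 to 45, against 9.49, 9.30, 9.49, 9.28 and 9.25 in controls. The antibody samples spanned a range far narrower than the controls and lay above all of them, with a difference of 0.25 ± 0.07 (limma adjusted p = 0.0575). In the FGF21 group the gene read 9.21, 9.52, 9.50, 9.59 and 9.49, a difference of 0.10 ± 0.07 from control (limma adjusted p = 0.482). The antibody group was above the FGF21 group by 0.15 ± 0.07 (limma adjusted p = 0.381).

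Mrpl46 was 10.52, 10.73, 10.65, 10.65 and 10.32 in the aFGFR1/KLB group, against 10.21, 10.30, 10.30, 10.19 and 10.26 in controls, a difference of 0.32 ± 0.11 (limma adjusted p = 0.111). Of the 5 FGF21 samples, 4 were between 10.47 and 10.67, while FGF21 36, at 9.99, was the lowest of all 15 samples. Mrpl43 differed by 0.24 ± 0.08 (limma adjusted p = 0.0991) and Mrps2, the mitochondrial counterpart of the bacterial small subunit protein S2, by 0.32 ± 0.12 (limma adjusted p = 0.145). When FGF21 36 was left out, which affects this contrast only through the shared estimate of spread, Mrpl43, Mrpl46, Mrpl54 and Mrps2 all passed for antibody against control, with limma adjusted p between 0.0168 and 0.0440, and 7.27% of all genes did.

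The 3 mammalian homologs of bacterial protein S18, encoded by Mrps18a, Mrps18b and Mrps18c, did not share a direction. Mrps18c was 10.99, 11.02, 11.03, 11.02 and 10.91 in aFGFR1/KLB samples and 10.73, 10.96, 11.02, 10.91 and 10.92 in FGF21 samples, against 11.07, 11.24, 11.51, 11.07 and 11.07 in controls. Both treated groups lay below every control, of which control 33 was highest, and neither difference passed: -0.20 ± 0.08 for the antibody (limma adjusted p = 0.203) and -0.28 ± 0.08 for FGF21 (limma adjusted p = 0.0595). Mrps18b differed from control by 0.18 in the aFGFR1/KLB group and by 0.18 in the FGF21 group, and Mrps18a by 0.21 and 0.08 in the same groups, none past the threshold. Mrpl12, a large subunit protein that also binds the mitochondrial RNA polymerase, differed by -0.04 ± 0.10 with the antibody and by -0.07 ± 0.10 with FGF21. Mrps6 differed by -0.15 ± 0.12 with the antibody and by -0.19 ± 0.12 with FGF21.

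Among cytosolic members, Rps19, the small subunit protein mutated in many people with Diamond-Blackfan anaemia, was 12.16, 12.26, 12.33, 12.17 and 12.27 with the antibody, against 12.42, 12.38, 12.56, 12.71 and 12.38 in controls. The groups did not overlap, and the difference of -0.25 ± 0.09 did not pass (limma adjusted p = 0.106). Rpl37a, of the large subunit, differed by -0.25 ± 0.10 (limma adjusted p = 0.171). Rps6, the small subunit protein phosphorylated by S6 kinases, differed in the other direction, by 0.23 ± 0.08 (limma adjusted p = 0.146). For FGF21 against control the largest positive differences were Rpl39l at 0.26, Rpl22l1 at 0.26, Rps25 at 0.25 and Rpl12 at 0.25, with standard errors between 0.13 and 0.36, and none passed.

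Ribosomal protein genes that serve as reference genes in PCR assays were close between the groups. Rplp0, which forms the base of the ribosomal stalk, differed from control by -0.11 ± 0.10 in the aFGFR1/KLB group and by 0.02 ± 0.10 in the FGF21 group. Rpl13a differed from control by -0.13 ± 0.10 with the antibody and by -0.02 ± 0.10 with FGF21. Rps18 differed by -0.17 ± 0.10 with the antibody and by -0.08 ± 0.10 with FGF21, and Rpl19 by -0.00 ± 0.07 with the antibody and by 0.07 ± 0.07 with FGF21. None of these passed, and single samples departed further than the group means. Rplp0 read 13.29 in FGF21 36 and 13.37 in control 34, against 12.79 to 13.13 in the other 13 samples.

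The size of any change that could have been missed was bounded for most members. The 95% confidence interval of the difference lay within 1.5-fold of no change in either direction for 76 of 76 mitochondrial and 46 of 48 cytosolic members in the antibody comparison with control, for 75 of 76 and 44 of 48 in the FGF21 comparison with control, and for 76 of 76 and 45 of 48 between the antibody and FGF21. The same held for 82.9%, 82.3% and 84.7% of all tested genes in these comparisons. Differences under 1.5-fold therefore remain possible for most members.

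As classes, the members shifted by at most 0.12 on the log2 scale at the median over all 15 samples, and single arrays moved these medians. The median difference of the aFGFR1/KLB group from control was -0.00 for mitochondrial members (37 above 0 and 39 below) and -0.12 for cytosolic members (8 above and 40 below), with -0.02 for all tested genes, of which 45.1% were above 0. For FGF21 against control the medians were -0.09 for mitochondrial members (14 above and 62 below) and -0.02 for cytosolic members (18 above and 30 below), with -0.02 for all genes, of which 45.5% were above 0. These comparisons use the same 5 control arrays. For the antibody against FGF21 the medians were 0.11 for mitochondrial members (73 above and 3 below) and -0.08 for cytosolic members (7 above and 41 below), with 0.01 for all genes, of which 53.7% were above 0. With each array left out in turn, the mitochondrial median of FGF21 against control ran from -0.15 without control 34 to -0.02 without FGF21 36, and that of the antibody against FGF21 from 0.04 without FGF21 36 to 0.14 without aFGFR1/KLB 45. The mitochondrial median of the antibody against control ran from -0.02 without control 34 to 0.04 without control 33. The cytosolic median ran from -0.15 without control 32 to -0.03 without control 34 for the antibody against control, from -0.09 without FGF21 36 to 0.05 without control 34 for FGF21 against control, and from -0.14 without FGF21 37 to -0.03 without FGF21 36 for the antibody against FGF21. Members of a class moved together from sample to sample, so these counts of signs are not counts of independent events, and at an unadjusted p under 0.05 limma gave 5 mitochondrial members higher with the antibody than with FGF21 and 1 cytosolic member lower, against 13.5% of all genes in either direction.

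Subunits and numbering families within a class differed little. In the FGF21 comparison with control the median was -0.09 for large and -0.12 for small mitochondrial subunit members, and in the antibody comparison it was 0.01 for large and -0.03 for small subunit members. Mitochondrial members numbered within the bacterial series (43 genes) had a median of -0.09 with FGF21, and those numbered beyond it (33 genes) -0.12. Cytosolic large and small subunit members had medians of -0.11 and -0.13 with the antibody. The cytosolic shift with the antibody was -0.14 for the 33 genes on probe sets with the shared-probe suffix and -0.06 for the 15 without.

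**Figure D2:**
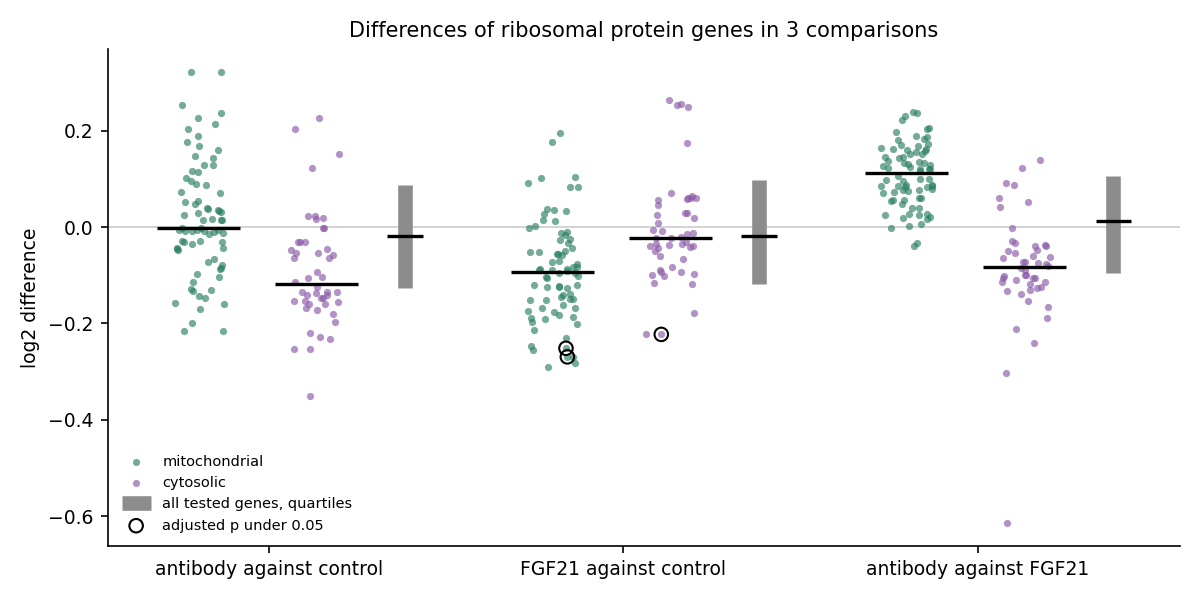
Log2 difference (vertical axis) of each tested mitochondrial (76, green) and cytosolic (48, purple) ribosomal protein gene in 3 comparisons, with medians as black lines, quartiles of all 13174 tested genes in grey and rings around genes with an adjusted p under 0.05. Medians of mitochondrial genes are -0.00, -0.09 and 0.11 and those of cytosolic genes -0.12, -0.02 and -0.08, and the 3 ringed genes are all in the FGF21 comparison with control.

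In both classes 2 samples stood apart. After each gene was centred on its mean over the 15 samples, the mitochondrial class mean was -0.02, 0.12, 0.07, 0.09 and -0.06 in aFGFR1/KLB samples 41 to 45, and -0.36, 0.03, 0.01, -0.02 and 0.01 in FGF21 samples 36 to 40, against 0.02, 0.09, 0.17, -0.16 and 0.02 in control samples 31 to 35. FGF21 36 stood far below all others and control 34 was the next lowest. The cytosolic class mean was -0.09, -0.11, -0.02, -0.10 and 0.01 in aFGFR1/KLB samples and 0.27, -0.13, -0.08, 0.11 and -0.03 in FGF21 samples, against -0.01, -0.10, -0.03, 0.32 and -0.03 in controls. The same 2 samples were highest here. FGF21 36 was the lowest of the 15 samples for 65 of 76 mitochondrial members, and control 34 the highest for 33 of 48 cytosolic members.

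Group means of the classes did not separate beyond this spread. The mitochondrial class averaged 0.04 ± 0.08 in the aFGFR1/KLB group, -0.07 ± 0.16 in the FGF21 group and 0.02 ± 0.12 in controls, and the cytosolic class averaged -0.06 ± 0.05 in the aFGFR1/KLB group, 0.03 ± 0.16 in the FGF21 group and 0.03 ± 0.17 in controls (SD, n = 5 each). Without FGF21 36 and control 34, the median difference between the antibody and FGF21 was 0.04 for mitochondrial and -0.03 for cytosolic members, and that of FGF21 against control was -0.06 for mitochondrial and -0.00 for cytosolic members. For the antibody against control it was -0.02 for mitochondrial and -0.03 for cytosolic members, so that the cytosolic shift of -0.12 rested largely on control 34.

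In these 13 samples more mitochondrial members passed against control, as did more of all genes. FGF21 against control then called 8 mitochondrial members lower, Mrpl14, Mrpl41, Mrpl49, Mrpl57, Mrps6, Mrps15, Mrps18c and Mrps24, with log2 differences between -0.31 and -0.21, and 1 higher, Mrpl46 at 0.29, while 9.46% of all genes were called lower and 6.77% higher. The antibody against control called Mrpl46, Mrpl54 and Mrps2 higher and Mrpl41 and Mrps15 lower, with 12.4% of all genes called. No cytosolic member passed in these 13 samples in any of the 3 comparisons by limma, and no mitochondrial member passed between the antibody and FGF21, where 1.83% of all genes did. The choice of samples to leave out was made after their values had been seen.

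**Figure D3:**
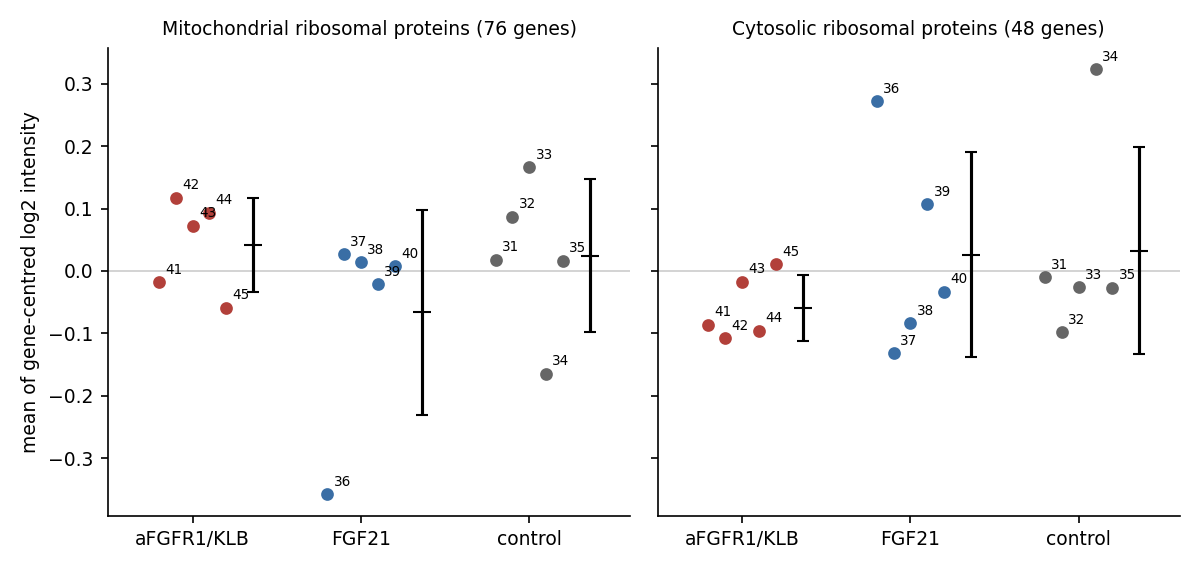
Mean gene-centred log2 intensity (vertical axis) of 76 mitochondrial (left) and 48 cytosolic (right) ribosomal protein genes in each sample, by group, with replicate numbers and the group mean ± SD in black (n = 5). FGF21 36 is lowest for the mitochondrial class at -0.36, and FGF21 36 and control 34 are highest for the cytosolic class at 0.27 and 0.32.

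**Figure D4:**
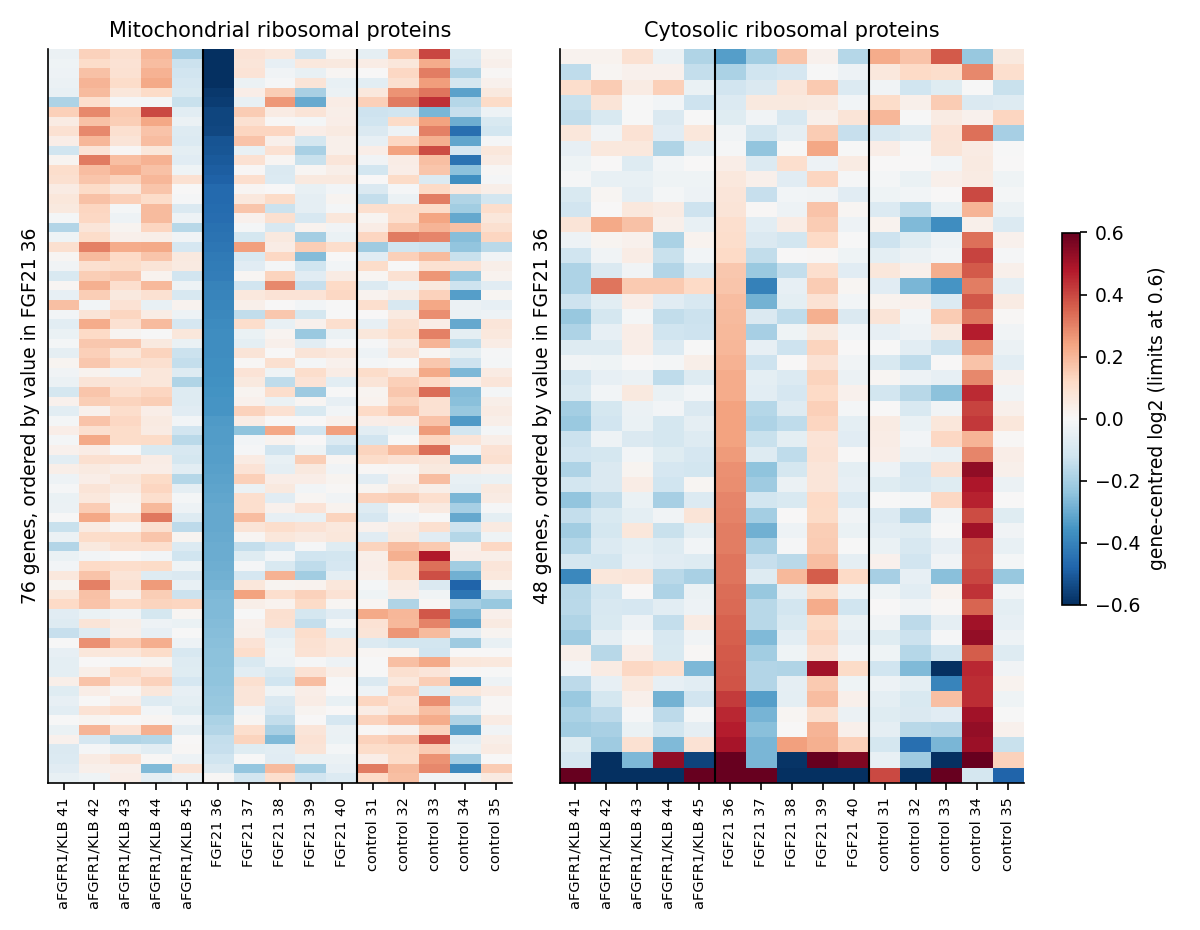
Gene-centred log2 intensity (colour, limits at 0.6) of the 76 mitochondrial (left) and 48 cytosolic (right) members in rows, ordered by their value in FGF21 36, and the 15 samples in columns, with lines between the groups. The columns of FGF21 36 and control 34 stand out in both classes, low for most mitochondrial and high for most cytosolic genes.

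The levels of some other cells' markers moved with the classes. FGF21 36 and control 34 had the highest macrophage list means of all samples, at 1.72 and 1.45 on the gene-centred log2 scale, where none of the other 13 samples exceeded 0.61. Their fibroblast and matrix list means were 1.16 and 1.43, and their brown adipocyte list means, -0.24 and -0.32, were the lowest. Of the 14 brown adipocyte markers, 4 were called higher and 1 lower with the antibody than in controls by limma. With FGF21, 2 were called higher and 2 lower. The mean of this list therefore mixes treatment differences with tissue content. The B and plasma cell and the T cell list means were also highest in FGF21 36 and control 34. In each of these lists 6 of 8 markers on the array passed the intensity limit. The widest ranges over all samples were those of Blnk (6.87 to 10.28) and Il7r (4.77 to 9.87). The next widest in each list were Cd22 (5.92 to 7.35) and Cd247 (4.93 to 5.76). These 2 list means therefore do not stand for all their markers. The endothelial list did not follow: its means were -0.06 and 0.04 in these samples, within the range of the others. The skeletal muscle list mean was 3.41 in FGF21 36, below only aFGFR1/KLB 45 at 3.54, and 0.56 in control 34. The summed intensity of the muscle markers was 142778 in FGF21 36, where the next highest FGF21 sample, 37, had 48031. The mitochondrial class mean minus the cytosolic class mean was -0.63 in FGF21 36 and -0.49 in control 34, against -0.13 to 0.23 in the other samples. With the macrophage list mean as a covariate in the fit, the median difference of the antibody from FGF21 was 0.03 for mitochondrial and 0.00 for cytosolic members. In that fit the antibody against control called 7 cytosolic members, Rpl10a, Rpl22, Rpl37a, Rps7, Rps15 and Rps19 lower and Rps6 higher, and 4 mitochondrial members, where 12.4% of all genes were called. FGF21 against control called 5 cytosolic members, Rpl11, Rpl22, Rps7, Rps19 and Rps27l, all lower, and 3 mitochondrial members, where 10.4% of all genes were called. These shares cover both directions. Of 13174 genes, 884 were called lower and 744 higher with the antibody, and 755 lower and 618 higher with FGF21. The cytosolic members called lower with the antibody differed by between -0.25 and -0.14 in that fit. Without the covariate they differed by between -0.25 and -0.15. The cytosolic members called with FGF21 differed by between -0.25 and -0.18 in that fit, and by between -0.22 and -0.09 without the covariate. The part of these cells in the class differences was not tested further.

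Genes outside the classes that followed them most closely over the 15 samples were chosen by Pearson's r with the class mean, as a description in samples that share their tissue composition. For the mitochondrial class these were Ndufs8, a subunit of respiratory complex I, Abhd11, Foxred1, a complex I assembly factor, Mmut, the mitochondrial methylmalonyl-CoA mutase, and Stoml2, a mitochondrial inner membrane protein, with r between 0.97 and 0.98. For the cytosolic class they were Ccl8, a chemokine, Tmsb10, an actin-binding thymosin, Plekha2, Rbpj, the transcription factor of Notch signalling, and Cmtm7, with r between 0.97 and 0.98, after 1 unnamed clone-like symbol that ranked above some of them was left out. In the 13 samples without FGF21 36 and control 34, r was between 0.89 and 0.93 for the first set and between 0.85 and 0.90 for the second. The median r between pairs of members was 0.66 in the mitochondrial and 0.64 in the cytosolic class over 15 samples, and 0.39 and 0.43 over 13.

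Paralogs of cytosolic ribosomal proteins that are made in particular tissues varied most. Rpl3l replaces Rpl3 in striated muscle, and its intensity was 7.63, 4.07, 4.83, 4.61 and 9.46 in aFGFR1/KLB samples 41 to 45 and 9.11, 7.25, 4.47, 4.27 and 4.89 in FGF21 samples 36 to 40, against 6.47, 5.29, 7.16, 5.97 and 5.59 in control samples 31 to 35. Each treated group held very high and very low samples while controls were intermediate, and the group differences were 0.02 ± 1.07 for the antibody and -0.10 ± 1.07 for FGF21. The summed intensity of 15 of 15 skeletal muscle markers ran from 6606 to 157731 in the aFGFR1/KLB group, from 3483 to 142778 in the FGF21 group and from 14953 to 45866 in controls. The 9 samples highest for Rpl3l came in the same order by the mean of these markers, and the 4 lowest samples were the same by both measures. The part of muscle tissue in the Rpl3l values was not tested. Rpl39l, a paralog of Rpl39 known from testis, ran from 7.89 to 9.64 in aFGFR1/KLB samples (median 8.83) and from 8.51 to 10.09 in FGF21 samples, against 8.50 to 9.96 in controls, with group differences of -0.35 ± 0.36 for the antibody and 0.26 ± 0.36 for FGF21. Rps2 and Rplp2 were at the other end, with ranges of 0.18 and 0.20 over all 15 samples.

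**Figure D5:**
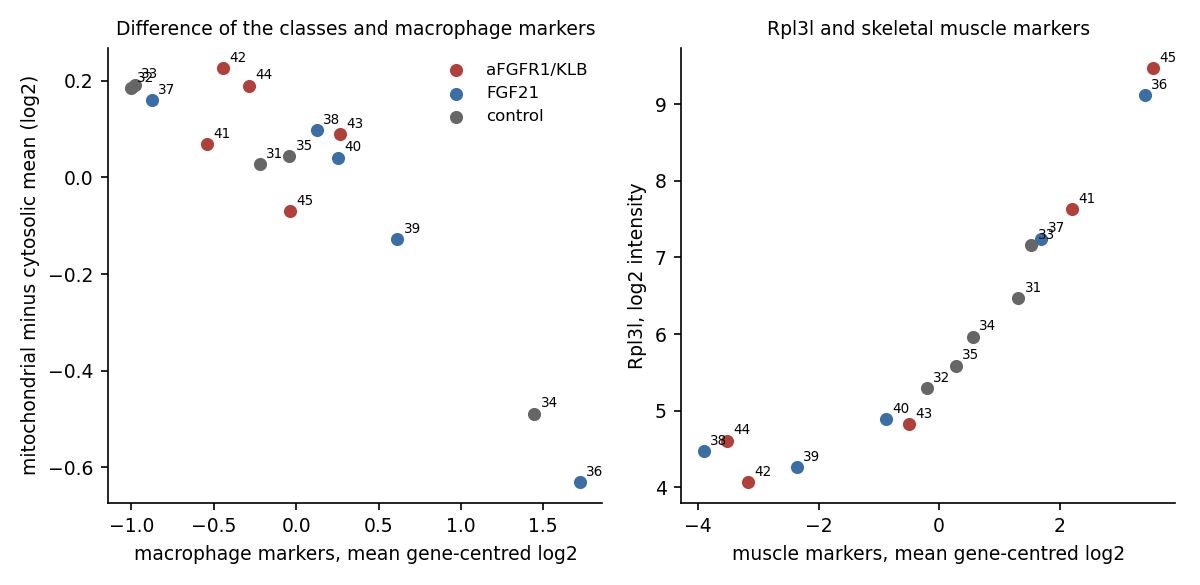
Left, mitochondrial minus cytosolic class mean against the mean of 19 macrophage markers, and right, Rpl3l intensity against the mean of 15 skeletal muscle markers, all on log2 scales, 1 point per sample with its replicate number. FGF21 36 and control 34 lie apart at -0.63 and -0.49 on the left, and Rpl3l runs from 4.07 to 9.46 on the right.

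Genes that assemble ribosomes held more calls with FGF21 than the ribosomal proteins themselves, a difference that was not tested. The list of these genes was chosen with earlier results of these data known. Of 50 ribosome biogenesis genes tested, 8 were higher with FGF21 than in controls and none was lower, where 2.64% of all genes were called higher. With the antibody 1 of 50, Rrp12, was higher, where 2.69% of all genes were. Between the antibody and FGF21 0 of 50 passed by limma, where 0.372% of all genes did. At an unadjusted p under 0.05 limma gave 10 of 50 in that comparison, where 13.5% of all genes passed. The median difference of the list was 0.15 for FGF21 and 0.05 for the antibody, each against the same controls.

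Rrp12, which acts in maturation and nuclear export of ribosomal subunits, read 6.89, 6.98, 6.93, 6.82 and 7.08 in aFGFR1/KLB samples and 7.21, 7.20, 7.23, 7.23 and 7.15 in FGF21 samples, against 6.75, 6.71, 6.58, 6.49 and 6.61 in controls. The 3 groups did not overlap, with FGF21 highest and the antibody between. Its difference from control was 0.58 ± 0.06 with FGF21 (limma adjusted p = 0.000124) and 0.31 ± 0.06 with the antibody (limma adjusted p = 0.0110), and it passed in all 15 fits that left out an array. Nolc1, a nucleolar phosphoprotein, read 8.68, 8.95, 8.86, 9.12 and 8.91 in FGF21 samples, against 8.39, 8.38, 8.59, 8.53 and 8.42 in controls (0.44 ± 0.08, limma adjusted p = 0.00402). Gar1, a protein of the particles that pseudouridylate ribosomal RNA, read 8.53, 8.51, 8.55, 8.66 and 8.53 in FGF21 samples, against 8.31, 8.11, 8.20, 8.40 and 8.09 in controls (0.34 ± 0.06, limma adjusted p = 0.00560). Both were separated without overlap.

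The other 5 biogenesis genes that rose with FGF21, named after their values had been seen, were Tsr1 by 0.56, Rrs1 by 0.45, Gnl3 by 0.39, Heatr1 by 0.36 and Gtpbp4 by 0.34. Gnl3 encodes the nucleolar protein nucleostemin, Gtpbp4 and Rrs1 act in large subunit assembly, Tsr1 in small subunit assembly, and Heatr1 in transcription and processing of ribosomal RNA. The mean of the list by sample lay between 0.02 and 0.18 in the FGF21 group, against -0.10 to -0.01 in controls, and between -0.07 and 0.04 in the aFGFR1/KLB group. Of the 8 calls, Tsr1 missed the threshold in 7 of the 15 fits without an array, Rrs1 in 2 and Heatr1 in 1. Without control 34, 14 biogenesis genes passed with FGF21 (13 higher and 1 lower), where 15.9% of all genes did. The count was 12 without FGF21 36, where 7.42% of all genes passed, and 5 without FGF21 39, where 3.99% did. Without both FGF21 36 and control 34 it was 18 (17 higher and 1 lower), where 16.2% of all genes passed. With the antibody 3 passed without control 34 (8.65% of all genes), 3 without FGF21 36 (7.27%) and 2 without FGF21 39 (4.73%).

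Ribosomal subunits whose symbols fall outside the rule gave 2 further calls. Rpsa, a small subunit protein also known as the laminin receptor, read 13.01, 13.11, 13.12, 13.01 and 13.11 in aFGFR1/KLB samples, against 13.46, 13.42, 13.52, 13.64 and 13.38 in controls. All antibody samples were lower, by -0.41 ± 0.08 (limma adjusted p = 0.00772). The mean of all Rpsa probe sets differed by -0.10 (limma adjusted p = 0.333). In the FGF21 group, at 13.57, 13.21, 13.21, 13.46 and 13.28, it overlapped control. Chchd1, a small mitochondrial subunit protein, read 10.74, 10.78, 10.82, 10.90 and 10.89 with FGF21, against 11.03, 11.08, 11.11, 10.99 and 11.01 in controls, lower by -0.22 ± 0.05 (limma adjusted p = 0.0191), and it missed the threshold in 2 of the 15 fits without an array. Of 2 cytosolic and 4 mitochondrial subunits of this kind tested, no other passed.

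Other parts of the translation machinery held between 0 and 2 calls a list, which for the antibody against control are to be read against 5.18% of all genes and for FGF21 against 6.32%. Of 28 cytosolic initiation factors tested, Eif4h, which stimulates the helicase eIF4A, and Eif3d, a subunit of eIF3, were lower with the antibody, by -0.20 ± 0.05 and -0.25 ± 0.06, and none passed with FGF21. Eif4h missed the threshold in 5 and Eif3d in 6 of the 15 fits without an array, and with the mean of all probe sets of a gene the difference was -0.08 for Eif4h (limma adjusted p = 0.423) and -0.14 for Eif3d (limma adjusted p = 0.234). On a probe set without the shared-probe suffix Eif4h differed by -0.02 (limma adjusted p = 0.940). Of 21 cytosolic aminoacyl-tRNA synthetases, Gars for glycine and Eprs for glutamate and proline were higher with the antibody, by 0.30 ± 0.07 and 0.27 ± 0.07, and none passed with FGF21. Gars missed the threshold in 6 and Eprs in 5 of the fits without an array. Of 35 mitochondrial translation and ribosome assembly factors, Mtfmt, which formylates the initiator tRNA of mitochondria, was lower with FGF21 by -0.36 ± 0.09 (limma adjusted p = 0.0210) and none passed with the antibody. It missed the threshold in 2 of the fits without an array, and the mean of its probe sets differed by -0.14 (limma adjusted p = 0.418). None of 18 mitochondrial synthetases and none of 21 non-ribosomal messengers with a pyrimidine tract at their start passed in either comparison by limma. At an unadjusted p under 0.05 limma gave 2 and 0 with the antibody, where 19.4% of all genes passed. With FGF21 it gave 1 and 0, where 20.4% did. Between the antibody and FGF21, no gene of these lists passed by limma, with 0.372% of all genes called.

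Probe sets of the members other than the brightest gave 4 calls when all probe sets were adjusted together. The share of all probe sets called in that fit is not given here. Among genes in the main fit, 5.18% were called with the antibody (2.69% higher) and 6.32% with FGF21 (2.64% higher). Of 64 such mitochondrial probe sets, those of Mrpl1 and Mrpl3, both of the large subunit, were higher with the antibody than in controls, by 0.42 ± 0.08 (limma adjusted p = 0.00966) and 0.32 ± 0.08 (limma adjusted p = 0.0279). The brighter Mrpl1 probe set differed by 0.03 in the same comparison (limma adjusted p = 0.925). Of 48 cytosolic ones, those of Rps24 and Rps9 were higher with FGF21, by 0.42 ± 0.10 (limma adjusted p = 0.0249) and 0.47 ± 0.12 (limma adjusted p = 0.0339), where their brightest probe sets differed by -0.04 and 0.06. Probe sets of these genes therefore disagreed, and the values do not say which follows the messenger.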

How the data were processed

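The authors deposited 1 value per probe set and array, an intensity on a linear scale that the submitters' processing notes describe as made with RMA; background and quantile settings are not given in the sources used here. Of 45101 probe sets, 34958 had 1 gene symbol in the platform annotation, 932 several and 9211 were unlisted. Values were taken to log2, each gene was represented by its brightest single-symbol probe set, and genes with a mean above the 40th percentile over probe sets were tested (R 4.3.3, limma 3.58.1) in a fit with 3 groups, checked on simulated data. Members, gene lists and motifs were chosen with earlier results of these data known. The text names called members, the 4 largest differences each way per class and comparison, reference genes, paralogs, S18 homologs and up to 3 called genes per other list; further names were chosen after values were seen. Alternatives were other filters, probe set rules, scalings, array weights, 2-group fits, a trend in the prior variance, a macrophage covariate and leaving out arrays.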

Additional observations from a re-analysis of the deposited data

Results flagged for a closer look

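In groups of 5, a sample was singled out where its gap to the nearest other sample, divided by the group's range, exceeded 0.71, which chance alone gives in about 1 in 20 groups. Of 57 group checks over class means and the reference, paralog and other fixed members, 9 stood out, all of them from 2 samples. In the FGF21 group, sample 36 was apart for the mitochondrial class mean, at -0.36 where the other 4 lay between -0.02 and 0.03, and for Mrpl12, at 11.65 where the others lay between 11.99 and 12.12. In the control group, sample 34 was apart for the cytosolic class mean (0.32, others -0.10 to -0.01) and for the mitochondrial minus cytosolic class mean (-0.49, others 0.03 to 0.19). Control 34 was also low for Mrps6, at 11.11 where the others lay between 11.64 and 11.80. It was high for Rplp0 at 13.37, Rpl13a at 13.81, Rps18 at 13.31 and Rps27l at 12.72, where the other controls reached 12.94, 13.45, 12.89 and 12.56. Members of a class share these samples, so the 9 are not independent.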

How the results depend on the processing

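Among the named results none changed sign and passed. Rps24, a member outside the naming rule, differed by -0.04 with FGF21 and by 0.42 (limma adjusted p = 0.0235) without shared-probe probe sets. The class medians moved by less than the SD of class means between samples. Among values of single genes, 31 of 917 under the other settings no longer passed and 37 newly passed, and with an array left out 73 and 10 of 1410 did. The counts of members called moved with most settings, as did those of all genes. With array weights, 2307 of 13174 genes were called with the antibody against control and 2855 with FGF21 against control. Between the antibody and FGF21 that fit called 832. In the 2-group fit 667 genes were called with the antibody and 322 with FGF21. Without shared-probe probe sets 568 and 704 of 11475 were. For mitochondrial members with the antibody against control, where 0 passed, the count was 1 with a filter at the 60th percentile, 1 without shared-probe probe sets, 2 in a fit of the 2 groups alone, 4 with the macrophage covariate, 5 without FGF21 36 and control 34 and 7 with array weights. For cytosolic members it was 1 without shared-probe probe sets, 3 with array weights and 7 with the covariate. With FGF21 against control, 2 mitochondrial calls became 0 with no filter, with the mean of all probe sets, with arrays centred on their median or in the 2-group fit, 1 without shared-probe probe sets, and 9 with array weights or without both samples. The 1 cytosolic call became 0 with no filter, centring, the 2-group fit or without both samples, 2 without shared-probe probe sets, 3 with array weights and 5 with the covariate. Leaving out each array in turn gave 0 to 4 mitochondrial calls with the antibody, and with FGF21 0 to 10 mitochondrial and 0 to 3 cytosolic calls, the highest without control 34. Ribosome biogenesis calls, an alternative added after the counts were seen, were 8 with FGF21 and became 4 in the 2-group fit, 5 without shared-probe probe sets, 13 with the covariate, 18 without both samples and 27 with array weights, and 5 to 14 with an array left out. With the antibody, 1 such call became 2 without shared-probe probe sets, 4 with the mean of probe sets, 5 without both samples, 6 with the covariate and 13 with array weights, and 1 to 3 with an array left out; against FGF21, 0 became 2 without both samples, 4 with array weights and 0 to 1 with an array left out. The cause was not tested. No paired analysis was possible because the groups share no replicate numbers. The arrays have no counts, and their number limits the precision.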
